A study of Mus musculus with 6 samples.

Results

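The receptors for the myeloid growth factors were followed along a path from cultured bone marrow progenitors to thymocytes that formed in a mouse. They are 8 genes of the 19938 measured on the arrays, chosen by name: Csf1r, Csf2ra, Csf2rb, Csf2rb2, Csf3r, Il3ra, Il6ra and Il6st. Each gene was represented by a probe set linked to it alone, and all 8 were tested. The study took 3 populations of mouse cells with 2 arrays each, and all of them descend from bone marrow cells transduced with Nup98-HoxB4, a fusion protein that lets progenitors grow for long periods in culture. HSC samples were these cells expanded with IL6 and SCF, ProT samples had been grown with the Notch ligand DLL4 and with IL7, and DP samples were the CD4 and CD8 double positive thymocytes that formed after ProT cells were injected into a Rag2-/- mouse. Such a host makes no mature T or B cells but keeps its own myeloid, NK and stromal cells, and the labels give neither a sort, a strain, an age nor the number of animals. Nothing in the labels ties the replicates to separate cultures or mice, so each p-value reflects only how far these arrays lie apart, which may be technical. Stage and growth conditions, with the cytokines present, change together over the populations and cannot be told apart.

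These receptors tell progenitors to survive, divide and become granulocytes, monocytes or macrophages. Csf3r (G-CSF) works as pairs of 1 chain and Csf1r (M-CSF) is a receptor tyrosine kinase. The receptors for GM-CSF, IL3 and IL5 each join a private alpha chain, such as Csf2ra or Il3ra, to the common beta chain Csf2rb, and mice carry an additional beta chain, Csf2rb2, that serves IL3. The IL6 receptor joins Il6ra to gp130, encoded by Il6st, which LIF, oncostatin M and IL27 receptors also use. Apart from Csf1r these chains have no kinase of their own and signal through JAK kinases and STAT factors. T lineage commitment is known to close the myeloid options of a progenitor, while gp130 remains in use in T cells.

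Signals are log2 values, so a difference of 1 is a 2-fold change, and levels of different genes were not compared. The median of all gene values, 7.17, served as a mark for dim signals, because nothing showed that signals below it lay above background, and a fold that involves such a mean is given as at least its size. A gene was called higher or lower at a Benjamini-Hochberg adjusted p below 0.05 in limma over all 19938 genes. The array medians over these genes lay between 7.11 and 7.24. Over all probe sets the medians were 6.9 and 6.91 on the DP arrays and 6.73 to 6.77 on the others. The lower quartiles were 5.38 and 5.41 in DP and 5.26 to 5.31 on the others. The part of this in the DP calls of dim genes was not tested. Replicate arrays correlated at 0.991 or more over all probe sets, and arrays of different populations at 0.973 or less. HSC arrays had Cd34 at 12.77 and 12.74 and Kit at 11.33 and 11.17, but the stem cell genes Procr (6.13 and 6.13) and Slamf1 (6.29 and 5.58) were dim there. ProT arrays had Cd3e at 12.56 and 12.58, with Cd4 (6.06 and 5.94) and Cd8a (6.42 and 6.42) dim. In DP Cd4 averaged 12.86 ± 0.02 and Cd8a 12.98 ± 0.03 (SD, n = 2). Fewer cells of a type and less RNA per cell cannot be told apart in such bulk samples.

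The upstream sequences of 4 receptor genes are shown here, because their signals took the different courses described next: Csf3r was dim from ProT on, Csf2rb2 came down in DP, Csf2ra stepped down at ProT, and Il6st was highest in DP. Each run is the 250 bases before the gene's start in RefSeq (build GRCm38.p6), read 5′ to 3′ on the gene's strand, with matches to the letters searched in capitals.
Csf3r, chr4:126024409-126024658, plus strand: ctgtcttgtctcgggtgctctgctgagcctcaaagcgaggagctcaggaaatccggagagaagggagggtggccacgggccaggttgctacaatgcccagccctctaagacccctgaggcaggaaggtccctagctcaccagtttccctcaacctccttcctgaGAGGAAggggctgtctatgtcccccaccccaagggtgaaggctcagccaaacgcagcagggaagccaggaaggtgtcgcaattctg
Csf2ra, chr19:61228419-61228668, minus strand: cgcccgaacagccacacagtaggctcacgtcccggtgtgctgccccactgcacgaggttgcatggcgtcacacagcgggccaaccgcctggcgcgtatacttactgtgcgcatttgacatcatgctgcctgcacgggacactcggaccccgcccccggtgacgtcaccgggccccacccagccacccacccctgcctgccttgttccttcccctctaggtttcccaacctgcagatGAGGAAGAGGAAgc
Csf2rb2, chr15:78305722-78305971, minus strand: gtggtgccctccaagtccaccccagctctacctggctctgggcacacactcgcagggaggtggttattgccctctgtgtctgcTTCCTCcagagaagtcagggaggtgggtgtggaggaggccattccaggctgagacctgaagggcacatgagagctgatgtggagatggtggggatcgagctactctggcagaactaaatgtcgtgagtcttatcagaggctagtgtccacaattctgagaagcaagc
Il6st, chr13:112463820-112464069, plus strand: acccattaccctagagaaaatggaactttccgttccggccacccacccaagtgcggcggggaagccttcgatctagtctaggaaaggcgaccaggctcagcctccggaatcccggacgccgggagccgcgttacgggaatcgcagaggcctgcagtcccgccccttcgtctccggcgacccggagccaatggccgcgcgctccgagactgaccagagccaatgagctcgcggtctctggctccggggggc

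The letters searched on both strands were GAGGAA, the core that the ETS factor PU.1 favours, TTGCNNAA, as bound by C/EBP factors, and TGTGGT, as bound by RUNX factors. In the Csf3r window GAGGAA began 86 bases before the start. In the Csf2ra window 2 adjacent copies began 14 and 8 bases before it, and in the Csf2rb2 window the reverse complement TTCCTC began 167 bases before it. Il6ra had TTCCTC as well, 70 bases before its start, and Il3ra had TTGCTCAA at 134 bases. The Il6st window held none of the 3. Of the 6 receptor windows in the table, 4 held GAGGAA, 1 held TTGCNNAA and 0 held TGTGGT. Of all 32851 windows of this length, 23.3% held GAGGAA, 9.56% TTGCNNAA and 14% TGTGGT. Csf1r and Csf2rb were not used here. A match describes letters only.

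**Figure D1:**
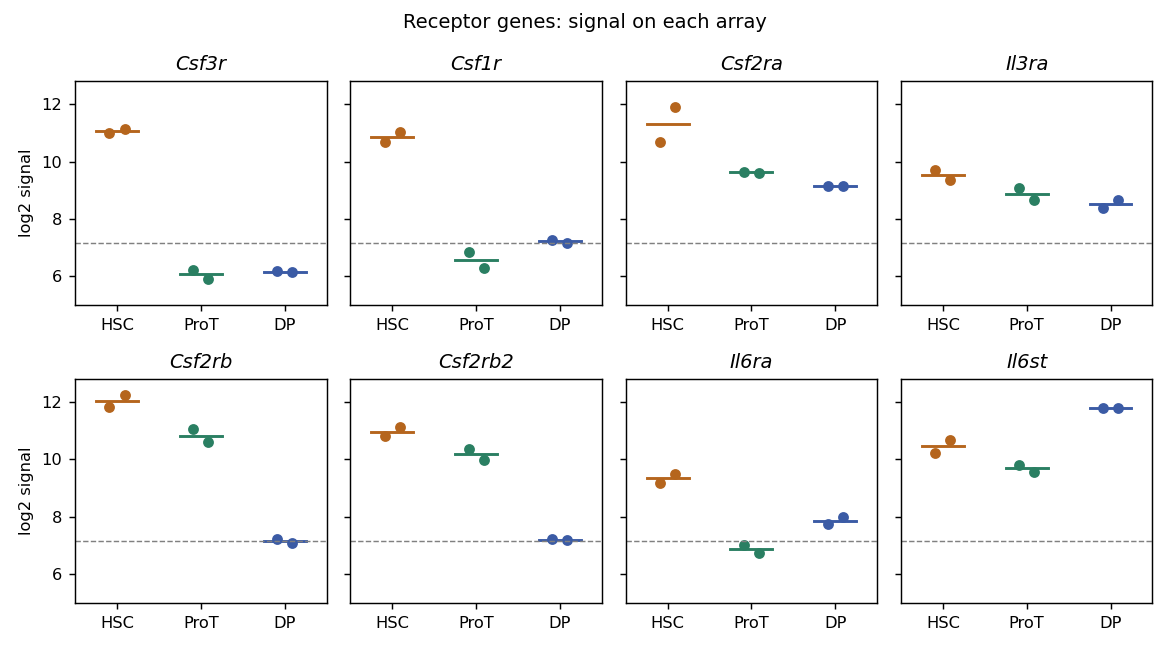
Log2 signal (vertical axis) of the 8 receptor genes on each of the 6 arrays (points), with the mean of each population (short lines) and the median of all gene values, 7.17 (dashed line). Csf3r and Csf1r lay below or near the dashed line in ProT and DP, Csf2rb and Csf2rb2 only in DP, and Il6st was highest in DP.

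The receptors for G-CSF and M-CSF were high in HSC alone. Csf3r had log2 signals of 10.99 and 11.13 on the HSC arrays, 6.24 and 5.92 on the ProT arrays and 6.18 and 6.15 on the DP arrays. The ProT and DP arrays overlapped and all lay below the mark of 7.17, far under both HSC arrays. In ProT Csf3r averaged 6.08 ± 0.23, against 11.06 ± 0.10 in HSC (SD, n = 2 each), at least 31.6-fold lower (log2 change -4.98 ± 0.12 SE, adjusted p = 1.13e-05 in limma). In DP against ProT the change was 0.09 (95% interval -0.22 to 0.39, adjusted p = 0.66).

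Csf1r had 10.68 and 11.03 in HSC, 6.84 and 6.30 in ProT and 7.28 and 7.16 in DP. Both ProT arrays were below both DP arrays, and all 4 were well under the HSC arrays. The fall at the first step was at least 19.5-fold (log2 change -4.28 ± 0.20, adjusted p = 9.7e-05). DP stood 0.65 ± 0.20 above ProT, with a 95% interval of 0.15 to 1.15, which did not pass the test (adjusted p = 0.0575). Of 15 alternative settings 8 put this difference past the threshold, and the adjusted p ran between 0.0178 and 0.24 over all of them. DP remained 12.4-fold below HSC (log2 change -3.63 ± 0.20, adjusted p = 8.24e-05).

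The alpha chains for GM-CSF and IL3 came down less and stayed above the mark. Csf2ra had 10.68 and 11.90 in HSC, 9.63 and 9.60 in ProT and 9.16 and 9.16 in DP. All ProT and DP arrays lay below both HSC arrays, but the HSC arrays were 1.22 apart, the widest gap of the 8 genes. Csf2ra averaged 9.62 ± 0.02 in ProT and 11.29 ± 0.86 in HSC, a 3.2-fold difference (log2 change -1.68 ± 0.36, adjusted p = 0.0319). Leaving out HSC replicate 2 made this change -1.07 and leaving out HSC replicate 1 made it -2.29. Over the alternatives the adjusted p ran between 9.75e-05 and 0.119, and 6 of 15 lost the call. DP lay 0.46 under ProT on the log2 scale, which was not called with all arrays (95% interval of the change -1.36 to 0.43, adjusted p = 0.416). The difference was called in the fit of the DP and ProT arrays alone, which had the lowest adjusted p, 0.00503. Dropping 1 HSC array gives that same fit for DP against ProT. In every comparison of 2 populations, 3 of the 15 alternatives are thus 1 test.

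Il3ra, the IL3-binding chain, showed the smallest range of the 8 genes, with 9.69 and 9.34 in HSC, 9.07 and 8.66 in ProT and 8.39 and 8.65 in DP. Neighbouring populations did not differ beyond the test: the change was -0.65 ± 0.19 for ProT against HSC (95% interval -1.11 to -0.19, adjusted p = 0.0789) and -0.35 ± 0.19 for DP against ProT (-0.81 to 0.12, adjusted p = 0.233). Over the whole path Il3ra was 1.99-fold lower in DP than in HSC (log2 change -0.99 ± 0.19, adjusted p = 0.00863), and without DP replicate 1 this call was lost, with an adjusted p between 0.00444 and 0.0752 over the alternatives.

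The beta chains held on in ProT and came down in DP. Csf2rb, the common beta chain, had 11.82 and 12.24 in HSC, 11.05 and 10.59 in ProT and 7.24 and 7.08 in DP. The 3 populations did not overlap. DP was at least 12.6-fold below ProT (7.16 ± 0.11 in DP and 10.82 ± 0.33 in ProT, log2 change -3.66 ± 0.20, adjusted p = 0.000105), while ProT was 2.32-fold below HSC (log2 change -1.22 ± 0.20, adjusted p = 0.0123). That call for ProT against HSC was lost in 4 of 15 alternatives, with an adjusted p between 0.00486 and 0.0516.

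Csf2rb2 had 10.81 and 11.12 in HSC, 10.37 and 9.98 in ProT and 7.23 and 7.18 in DP, again with no overlap. DP was 7.86-fold below ProT (log2 change -2.97 ± 0.16, adjusted p = 0.0001). ProT was 1.72-fold below HSC (log2 change -0.79 ± 0.16, adjusted p = 0.0263), a call lost in 6 of 15 alternatives, with an adjusted p between 0.0164 and 0.0893. The 2 beta chain genes are close copies of each other, and whether a probe set of one also reads the transcript of the other was not tested.

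Most mast cell and NK cell marker genes were also lower in DP than in ProT. Of 10 mast cell and basophil genes 8 were lower and 0 higher in DP than in ProT, beside 18.1% and 14.5% of all genes. ProT had 6 higher against HSC and 1 lower, beside 7.85% and 6.9% of all genes. The lower one was Hdc, the enzyme that makes histamine. The list averaged 6.98 and 6.79 in HSC, 9.41 and 9.33 in ProT and 5.74 and 5.64 in DP, with 6 and 7 of its genes below 7.17 in HSC, 2 and 2 in ProT and 9 and 9 in DP. Mcpt1, a mast cell protease, had 4.89 and 4.96 in HSC, 12.55 and 12.48 in ProT and 4.83 and 4.74 in DP. Fcer1a, a chain of the IgE receptor, had 4.87 and 4.81 in HSC, 9.23 and 9.43 in ProT and 4.68 and 4.72 in DP. Both were dim in HSC, but other genes of the list were above the mark there. Cpa3 had 11.03 and 10.7 in HSC, Hdc 10.18 and 9.7 and Mcpt8 9.09 and 8.97. Among 7 genes of NK cells, ProT had 4 higher and 0 lower against HSC, beside 7.85% and 6.9% of all genes. DP had 4 lower and 1 higher against ProT, beside 18.1% and 14.5%. That list averaged 6.47 and 6.43 in HSC, 8.71 and 8.59 in ProT and 7.34 and 7.21 in DP. Gzma, a granzyme of NK and T cells, had 5.39 and 5.47 in HSC, 13.04 and 13.12 in ProT and 9.62 and 9.77 in DP. Among 10 genes of dendritic cells, ProT had 5 higher and 0 lower against HSC, beside 7.85% and 6.9% of all genes. DP had 3 higher and 1 lower against ProT, beside 14.5% and 18.1%. The list means were 6.11 and 6.01 in HSC, 7.94 and 7.75 in ProT and 7.7 and 7.73 in DP. The genes higher in ProT were Itgax, H2-Aa, H2-Ab1, Cd74 and Ciita, the last with dim means of 7.15 in ProT and 6.39 in HSC. Xcr1, Siglech, Clec9a, Zbtb46 and Cd209a were not called in ProT against HSC and lay below 7.17 in every population. Of these, Xcr1, Siglech and Cd209a were the 3 called higher in DP against ProT, where Itgax was the lower one. The part of such cells in the beta chain values was not tested.

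The chains of the IL6 receptor parted. Il6ra, which binds IL6, had 9.18 and 9.48 in HSC, 7.03 and 6.73 in ProT and 7.75 and 7.98 in DP. Both ProT arrays were the lowest and both HSC arrays the highest, with no overlap. It fell at least 5.47-fold in ProT against HSC (log2 change -2.45 ± 0.16, adjusted p = 0.000337) and rose at least 1.98-fold in DP against ProT (0.99 ± 0.16, adjusted p = 0.00537). That rise was not called without DP replicate 2, and its adjusted p ran between 0.00286 and 0.0557 over the alternatives. DP stayed 2.76-fold below HSC (log2 change -1.47 ± 0.16, adjusted p = 0.000942).

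Il6st was the 1 receptor gene that ended above its level in HSC. Its signals were 10.22 and 10.67 in HSC, 9.80 and 9.57 in ProT and 11.78 and 11.79 in DP. The 3 populations did not overlap, with DP on top and ProT at the bottom. In DP it rose 4.3-fold against ProT (11.79 ± 0.01 in DP and 9.69 ± 0.16 in ProT, log2 change 2.10 ± 0.16, adjusted p = 0.000355) and 2.54-fold against HSC (1.34 ± 0.16, adjusted p = 0.00147). The drop in ProT against HSC was 1.69-fold (log2 change -0.76 ± 0.16, adjusted p = 0.0303) and was lost in 6 of 15 alternatives, with an adjusted p between 0.00486 and 0.112.

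**Figure D2:**
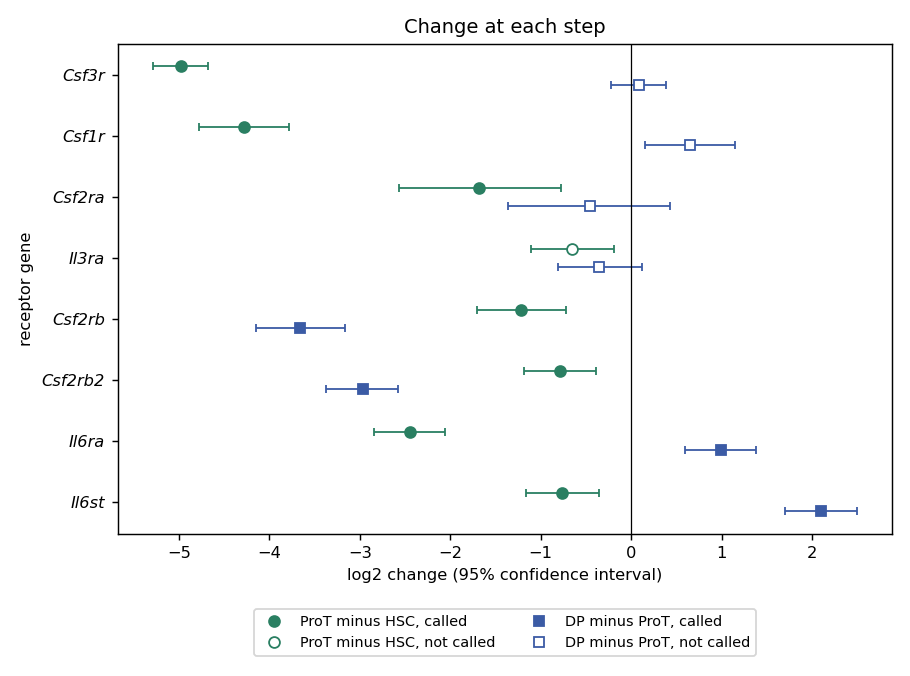
Log2 change of each receptor gene (rows) with its 95% confidence interval, for ProT minus HSC (circles) and DP minus ProT (squares), filled where called in limma. Csf3r and Csf1r sit at -4.98 and -4.28 for ProT minus HSC, Csf2rb and Csf2rb2 at -3.66 and -2.97 for DP minus ProT, and Il6st at 2.10 for DP minus ProT.

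In ProT against HSC 7 of the 8 receptor genes were lower and 0 higher, where 6.9% of all genes were called lower and 7.85% higher. Their median log2 change was -1.45, beside -0.01 over all genes. Csf1r, Csf3r and Il6ra account for the 3 lower calls that were left when the ProT and HSC arrays were fitted alone. Dropping either DP array is the same test. In DP against ProT 2 were higher and 2 lower, beside 14.5% and 18.1% of all genes, a share too close to that of all genes to set these receptors apart. In DP against HSC 7 were lower and 1 higher, beside 18.8% and 16% of all genes, with a median change of -2.89 against 0.02 over all genes. Without 1 array the lower ones numbered 5 to 7. Csf2ra lost its call without either DP array, with an adjusted p between 3.41e-05 and 0.0555 over the alternatives. The comparisons share arrays and are not independent of each other.

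Whether the steps differed was tested by setting ProT against the mean of its neighbours, the midpoint between HSC and DP. Csf2rb and Csf2rb2 lay above it, by 1.22 ± 0.17 (adjusted p = 0.00603) and 1.09 ± 0.14 (adjusted p = 0.00403), so that more of their fall came between ProT and DP. Csf3r lay below the midpoint by a log2 difference of -2.53 ± 0.11, Csf1r by -2.47 ± 0.18, Il6ra by -1.72 ± 0.14 and Il6st by -1.43 ± 0.14, all 4 called. Csf2ra (-0.61, 95% interval -1.38 to 0.17, adjusted p = 0.257) and Il3ra (-0.15, interval -0.55 to 0.25, adjusted p = 0.608) were not called. Among all genes 11.8% were called above the midpoint and 9.17% below it. Without HSC replicate 1 or without HSC replicate 2 Csf2ra was called below the midpoint, at -0.91 and -0.30, and its adjusted p ran between 0.000678 and 0.495 over the alternatives.

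Replicate arrays of ProT and of HSC differed in 1 direction for most of the receptor genes. On ProT replicate 1 all 8 were higher than on ProT replicate 2, by 0.03 to 0.54, and 41.6% of all genes were higher on replicate 2. Between the HSC arrays 7 of 8 were higher on replicate 2 (50.4% of all genes), by up to 1.22, and Il3ra was higher on replicate 1. In DP 4 of 8 were higher on each array, and the arrays were within 0.26 of each other for every receptor gene. The list of neutrophil and granulocyte precursor genes moved alike, with a mean log2 signal of 8.13 on ProT replicate 1 and 7.28 on ProT replicate 2, and of 11.50 on HSC replicate 1 and 11.74 on HSC replicate 2.

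That list accompanied the receptor falls. Its 11 measured genes were all lower in ProT than in HSC, with 6.9% of all genes lower, and averaged 8.13 and 7.28 on the ProT arrays, against 11.50 and 11.74 on the HSC arrays. Mpo, the granule peroxidase, was at 9.76 and 8.16 in ProT and 13.13 and 13.13 in HSC. In DP the list averaged 7.1 and 7.0, with 6 and 7 of its 11 genes below 7.17. Against ProT, 4 of them were higher in DP and 3 lower, beside 14.5% and 18.1% of all genes. The higher ones were Camp, Ltf, S100a8 and S100a9, all near or below 7.17 in DP, and the lower ones Prtn3, Ctsg and Mmp8. Ngp, at 9.75 and 9.68 in DP, against 8.85 and 6.59 in ProT, did not pass. Of 15 monocyte and macrophage genes 3 were lower and 1 higher in ProT against HSC, beside 6.9% and 7.85% of all genes. The lower ones were F13a1, a transglutaminase (at least 72.4-fold), Cd14, a coreceptor for endotoxin (at least 12.3-fold), and Fcgr1, an Fc receptor dim in both. Adgre1, a macrophage surface protein, was the higher one, at 11.02 and 11.18 in ProT, against 9.15 and 10.18 in HSC, and Ccr2, a chemokine receptor of monocytes, did not pass, at 10.80 and 11.29 in ProT, against 11.53 and 11.90 in HSC. The share of these marker genes' cells in the receptor results was not tested.

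In DP, where Csf1r stood 0.65 above ProT, 7 of the 15 monocyte and macrophage genes were higher and 3 lower, beside 14.5% and 18.1% of all genes. The lower ones were Ccr2 (at least 18.1-fold), Adgre1 (at least 15.8-fold) and Cd68, a lysosomal protein (2.74-fold). F13a1 was among the higher ones, at 11.63 and 11.50 in DP, against 6.17 and 5.84 in ProT, after 12.13 and 12.24 in HSC. The complement genes of tissue macrophages were higher too: C1qb had 9.56 and 9.37 in DP, against 6.60 and 6.07 in ProT, and C1qc had 8.17 and 8.26, against 5.98 and 5.83. C1qa was called higher as well, at 7.26 and 7.21 in DP, against 6.36 and 6.3 in ProT. Mrc1 (5.74 and 5.82 in DP), Mertk (6.49 and 6.28) and Siglec1 (6.62 and 6.71) were also called higher but stayed below 7.17. Vsig4, at 4.64 and 4.76 in DP, and Marco, at 6.38 and 6.37, were dim and not called. The list as a whole averaged 7.19 and 7.18 in DP, 7.03 and 6.93 in ProT. Of 11 stromal, epithelial and endothelial genes 6 were higher in DP than in ProT and 1 lower, beside the same 14.5% and 18.1%. Of the higher ones Pdgfra, Krt5, Foxn1 and Cdh5 lay below 7.17 in both populations. Krt8 (9.53 in DP, 7.41 in ProT) and Col3a1 (7.62 and 7.29) lay above it. The lower one was Epcam, at 7.42 in DP and 10.02 in ProT (6.07-fold). The part of macrophage, stromal, epithelial and endothelial cells in the DP values of Csf1r, Il6ra or Il6st was not tested.

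Genes that regulate myeloid receptor genes showed both courses. Of 10 measured, 6 were lower and 1 higher in ProT than in HSC, beside 6.9% and 7.85% of all genes, with a median change of -0.90. Cebpa, the C/EBP factor of granulocyte commitment, was at least 8.32-fold lower in ProT (6.63 ± 0.28) than in HSC (9.69 ± 0.09) and stayed at 6.65 ± 0.03 in DP. Cebpe, needed for late granulocytes, was 5.33-fold lower and Cebpd at least 3.83-fold lower in ProT. Gfi1, a repressor in granulocyte and T cell precursors, had a change of -0.57 that did not pass. Spi1, which encodes PU.1, had 12.31 ± 0.39 in HSC, 11.30 ± 0.34 in ProT and 7.88 ± 0.00 in DP, and was 10.7-fold lower in DP than in ProT. In DP against ProT 3 of the 10 were lower and 2 higher, beside 18.1% and 14.5% of all genes, with Cebpb at least 1.93-fold lower and Gfi1 at 0.74, and Runx1 did not pass at 0.25.

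**Figure D3:**
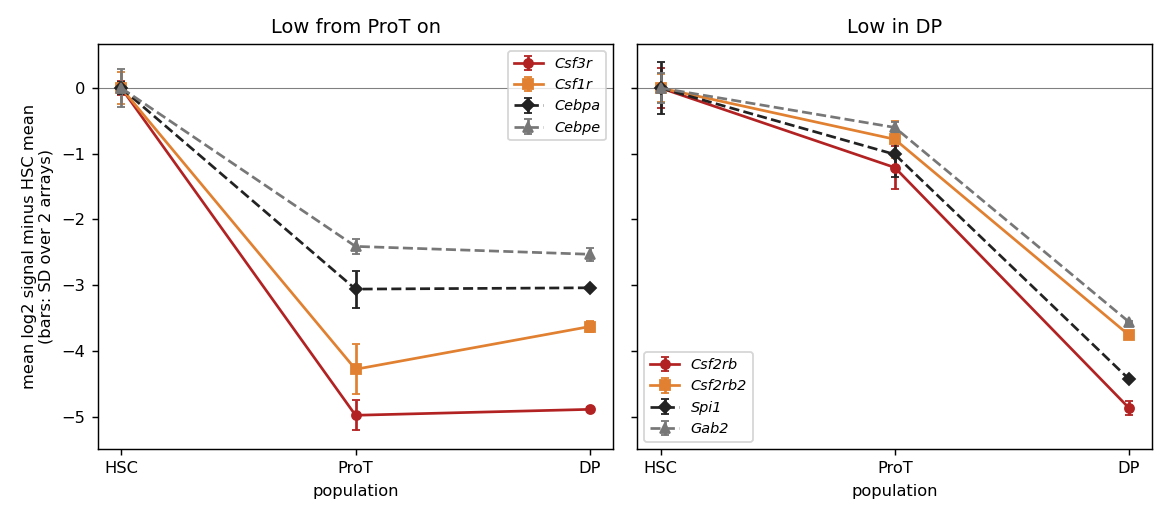
Mean log2 signal minus the mean of HSC (vertical axis) across the 3 populations, with the SD over 2 arrays as bars. On the left Csf3r and Csf1r are drawn with Cebpa and Cebpe, all near their final level in ProT, and on the right Csf2rb and Csf2rb2 with Spi1 and Gab2, which were much lower in DP than in ProT; the genes were put together after their values were seen.

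The genes with the most similar course were looked up for each receptor gene among 10547 genes with a population mean of at least 7.17, by the root mean square difference of the centred log2 values over the 6 arrays. For Csf2rb these were Spi1 (0.19) and Rab31 (0.30). Csf2rb2 was closest to Gab2 (0.12), a docking protein of cytokine receptors, and to Reep6 (0.15). Csf1r was nearest to Tgfbi (0.12), a matrix protein that monocytes make, and to S100a9 (0.16), a neutrophil and monocyte protein. Csf3r ran closest to Abcd2 (0.16) and Anxa3 (0.17), and Csf2ra to Napepld (0.13) and Lix1l (0.14). For Il3ra the nearest were B3gnt7 and Iqsec1 (0.12 each), for Il6ra Kcnip3 (0.20) and Xylt1 (0.22), and for Il6st Ncoa1 (0.10) and Pvr (0.13). With 3 populations such courses are shared by many genes, and the values are descriptive.

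Ligand genes of these and related receptors were mostly dim in HSC and DP, and several were higher in ProT. The list also holds Flt3l and Kitl, the ligands of Flt3 and Kit. Of 15 measured, 6 were higher and 0 lower in ProT than in HSC, with 7.85% of all genes higher and 6.9% lower, and their median change was 0.36. Lif, which signals through gp130, had 9.68 and 10.32 in ProT, against 6.16 and 6.0 in HSC, at least 15.2-fold higher (adjusted p = 0.000157). Csf2, encoding GM-CSF, had 7.92 and 8.60 in ProT, against 5.61 and 5.66 in HSC, and rose at least 6.17-fold. Il5, which uses the common beta chain, rose at least 7.03-fold, to 7.69 ± 0.18 in ProT. No ProT array overlapped an HSC array for these 3 genes.

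The other ligand genes that rose in ProT were Osm, for oncostatin M, by 1.86 ± 0.12, Flt3l by 1.09 ± 0.08 and Clcf1, a cytokine of the gp130 family, by 0.94 ± 0.11. Il6 did not pass, with 5.0 and 6.13 in ProT, against 4.36 and 4.48 in HSC (change 1.15 ± 0.34, adjusted p = 0.0854), and Il3 lay below 7.17 on all 6 arrays. In DP against ProT 8 of the 15 were lower and 2 higher, beside 18.1% and 14.5% of all genes. Lif was at least 16.4-fold lower in DP, Osm 6.78-fold and Csf2 at least 6.06-fold lower. Csf1, for M-CSF, was below the mark in all populations and had a change of -0.26 there. The lists of mast cell and NK cell genes likewise had their highest means on the ProT arrays, 9.41 and 9.33 and 8.71 and 8.59. Mcpt1 and Gzma were highest in ProT, but not every member was. Hdc, Mcpt8 and Prss34 were highest in HSC, Klrk1 and Eomes in DP, and Prf1 was level in ProT and DP (7.69 and 7.71). The part of mast cells and NK cells in the ligand values was not tested.

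**Figure D4:**
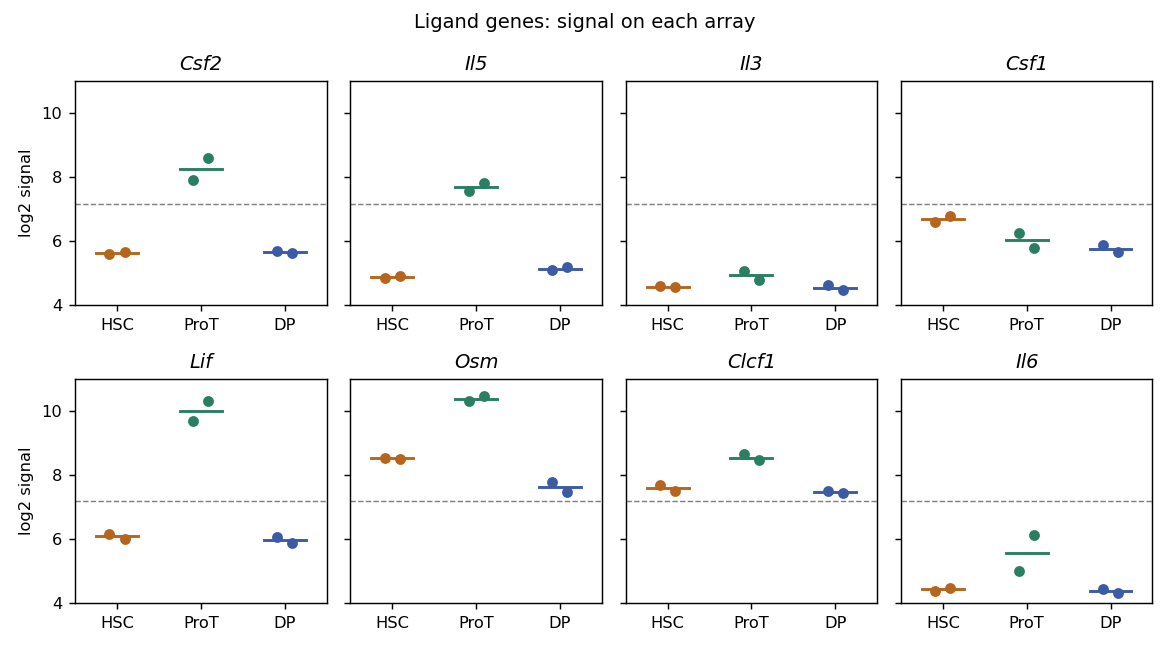
Log2 signal (vertical axis) of 8 ligand genes on each of the 6 arrays (points), with population means (short lines) and the median of all gene values, 7.17 (dashed line). Lif, Osm, Csf2, Il5 and Clcf1 were highest in ProT, and Il3 and Csf1 lay below the dashed line on all arrays.

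Other receptors of the same kinds were mostly not called in ProT. Of 10 measured, 1 was higher and 0 lower in ProT than in HSC, near the 7.85% and 6.9% of all genes. DP had 4 higher and 2 lower against ProT, beside 14.5% and 18.1% of all genes. Kit, the SCF receptor, was the higher one in ProT, by 0.72 ± 0.10, and was 9.6-fold lower in DP than in ProT. Flt3, a receptor kinase of lymphoid and myeloid progenitors, was 7.74-fold lower in DP than in ProT. Among chains that pair with gp130, Il27ra rose by 0.88 ± 0.18 in DP against ProT, to 10.61 ± 0.07. Lifr (7.17 ± 0.06 in DP, 6.53 ± 0.04 in ProT) and Osmr (5.52 ± 0.05 in DP, 4.93 ± 0.03 in ProT) were also called higher but stayed near or below the mark. Il5ra, the alpha chain for IL5, was called higher as well, at 5.53 ± 0.12 in DP and 4.81 ± 0.10 in ProT, both dim.

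The JAK kinases and STAT factors were above the mark on all arrays. Of 9 measured, 1 was higher and 0 lower in ProT than in HSC, near the 7.85% and 6.9% of all genes. The higher one was Stat4 (0.78 ± 0.14), and Jak2, the kinase used by the beta chain receptors, did not pass at 0.48 ± 0.17. Against ProT, DP had 4 lower and 2 higher, beside 18.1% and 14.5% of all genes. Tyk2 changed by -1.14 ± 0.09 and Stat3, the main STAT of gp130 and G-CSF signals, by -0.55 ± 0.07, while Stat5b rose by 0.64 ± 0.09.

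Of 16 measured adaptors and effector enzymes, 3 were lower and 2 higher in ProT than in HSC, beside 6.9% and 7.85% of all genes. DP had 10 lower and 2 higher against ProT, beside 18.1% and 14.5%. Plcg2, a phospholipase, was 12.3-fold lower in DP (7.74 ± 0.12) than in ProT (11.36 ± 0.01), Tyrobp, an adaptor of myeloid and NK receptors, 8.97-fold lower and Gab2 7.78-fold lower. In ProT against HSC Pik3cd rose by 1.25 ± 0.12, Gab1, a docking protein like Gab2, was at least 2.0-fold lower, and Stap1 did not pass at -0.51.

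Inhibitors of these receptors went both ways, with 6 of 22 higher and 3 lower in ProT than in HSC, beside 7.85% and 6.9% of all genes. DP had 5 higher and 7 lower against ProT, beside 14.5% and 18.1%. Socs2, a feedback gene of STAT5, was at least 27.3-fold higher in ProT than in HSC and at least 30.3-fold lower in DP than in ProT. Cish, also a feedback gene of STAT5, changed by 2.55 ± 0.20 in ProT against HSC and by -2.80 ± 0.20 in DP against ProT. Socs1 rose by 2.40 ± 0.08 in ProT. The 3 lower genes in ProT were Socs3, the feedback inhibitor of gp130 and Csf3r (-1.21 ± 0.07), and the proteases Adam10 (-0.99 ± 0.14) and Adam17 (-0.94 ± 0.11), which cut receptors such as Il6ra from the cell surface.

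Of 18 genes that such receptors can switch on, 6 were higher and 2 lower in ProT than in HSC, beside 7.85% and 6.9% of all genes. Dusp5, a phosphatase of the ERK pathway, changed by 2.83 ± 0.17, Egr1 by 2.52 ± 0.33 and Ccnd1, cyclin D1, by -1.35 ± 0.08, and Dusp6 did not pass at 0.91 ± 0.42. In DP against ProT 11 were lower and 3 higher, beside 18.1% and 14.5% of all genes, with a median change of -0.94. Ier3, an early response gene, was at least 7.31-fold lower and Pim1, a survival kinase induced by STAT factors, changed by -2.17 ± 0.16, whereas Bcl2l1, which encodes the survival protein BCL-XL, rose by 2.21 ± 0.09.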

How the data were processed

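Total RNA of 6 mouse samples was labelled with biotin and hybridised to Affymetrix arrays, per the labels' protocols. The authors deposited 1 table of log2 signals for 35556 probe sets, made with RMA and Partek per the submitters' processing notes, with settings not given in the sources used. RMA evens out arrays, so a shift of most genes in 1 direction would be reduced.

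A platform table linked 21789 probe sets to 1 gene each, and the probe set with the highest mean stood for a gene. All 6 arrays were fitted with a mean per population in limma 3.58.1 (R 4.3.3, residual degrees of freedom 3, prior 2.83), with moderated SE and 95% intervals and Benjamini-Hochberg adjustment over all 19938 genes. The number of arrays limits the precision. The fit was tested on simulated data.

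The members and lists were chosen with earlier results of these data known, and 190 of 200 listed genes were measured. Named are all receptor genes, the 2 most similar courses of each, and per list and comparison up to 3 called genes and 1 uncalled gene with the largest changes. Further ligands, partner chains, inhibitors and markers were named after their values were seen. The closing section gives the effect of other scalings, filters, probe set rules, priors, thresholds and array subsets and of a replicate block.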

Additional observations from a re-analysis of the deposited data

How the results depend on the processing

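Over 472 recalculated receptor changes, 430 kept their direction and side of the threshold, 26 lost a call, 14 gained one and 2 changed sign. Those 2 were not called: leaving out 1 array put Csf3r in DP against ProT between -0.07 and 0.25 and Il3ra against the midpoint between -0.35 and 0.05, both changing sign without ProT replicate 2. Without 1 array, the lower receptor genes in ProT against HSC numbered 3 to 7 and the higher ones in DP against ProT 1 to 3. The genes called higher and lower numbered 1013 to 1988 and 779 to 1994 in ProT against HSC, 1467 to 3282 and 2047 to 4126 in DP against ProT, 1940 to 3188 and 2361 to 3862 in DP against HSC, and 1258 to 2877 and 776 to 2356 against the midpoint. With only the populations compared, ProT against HSC had 3 lower receptor genes and 1013 higher and 779 lower genes. Dropping 1 array of the third population gives this same fit for a comparison of 2 populations. Among the recalculated changes such a test therefore counts 3 times. At an adjusted p below 0.01 there were 3 lower receptor genes, 891 higher and 644 lower genes in ProT against HSC, 1645 and 2396 in DP against ProT, 2060 higher in DP against HSC, and 1251 and 750 against the midpoint, by construction of the threshold. Median centring moved the median of all genes to 0.13 in DP against ProT, with 4522 genes higher and 2987 lower (2899 and 3607 before), and to -0.11 against the midpoint, with 1864 higher and 2996 lower (2359 and 1828 before). Quantile normalization gave 3629 higher and 3044 lower in DP against ProT, 3856 and 3305 in DP against HSC (3195 and 3758 before), and 2063 and 2299 against the midpoint. Median centring gave 3503 and 3559 in DP against HSC. In ProT against HSC it gave 1321 higher and 1821 lower (1565 and 1375 before). It put Il3ra in ProT against HSC (-0.73) and Csf1r in DP against ProT (0.77) past the threshold and changed no sign of a receptor gene. The cause of these changes was not tested. The replicate block gave 7 lower receptor genes in ProT against HSC and changed no call among 32 receptor results. Same-numbered arrays correlated in their deviations at 0.058 for HSC and ProT, -0.022 for DP and HSC and -0.043 for DP and ProT. No deviation shared over all genes was seen. With 2 arrays per population this cannot show whether same-numbered samples came from the same culture or mouse. Signals below 7.17 limit the size of the falls of Csf3r, Csf1r, Il6ra and Csf2rb. In DP the means of Csf2rb2 (7.2) and Csf1r (7.22) lay only just above 7.17, so their falls there may be limited as well.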
